A study of Mus musculus with 124 samples.

Results

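Described here are 10 genes of the p53 and cellular stress response, out of 53465 genes counted in T cells, B cells and monocytes sorted from mouse blood. They are Cdkn1a, Ccng1, Mdm2, Trp53inp1, Bbc3, Gadd45a, Gadd45b, Gadd45g, Plk2 and Plk3, found by gene symbol, each as 1 row of the count table. The set was drawn up because Plk3, Bbc3 and Gadd45a had been lower in EtOH lymphocytes, so the comparison of EtOH with PBS in T and B cells is given below as values, without a test. All 10 genes passed the filter on low counts in every comparison.

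The protein p53 is a transcription factor that accumulates when DNA is damaged or a cell is otherwise stressed. It switches on genes that stop the cell cycle (Cdkn1a, Ccng1), that start cell death (Bbc3, which encodes the BCL2 inhibitor PUMA) and that limit p53 itself (Mdm2, the ubiquitin ligase that targets p53 for degradation). Gadd45a, Gadd45b and Gadd45g encode small proteins that bind the kinase MEKK4 and feed p38 and JNK signalling, and in lymphocytes and myeloid cells they also respond to cytokines and antigen without p53. Plk2 and Plk3 are stress-linked polo-like kinases that behave as immediate early genes in many cell types.

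EtOH samples come from CD1 mice, an outbred stock, in a model of prenatal alcohol exposure with intraperitoneal ethanol at 4.0 g/kg as a 25% solution in PBS on embryonic days 16 and 17. The label CBM is not explained. The protocol also describes dams injected with streptozotocin (STZ) at 150 mg/kg, a toxin of insulin-producing cells, to model maternal diabetes, but no label ties CBM to it. PBS samples are named for the buffer in which ethanol was given. Blood was taken on postnatal days 35 to 40 and sorted into the 3 cell types by flow cytometry, with no gate given, and the stated aim was RNA markers shared by both exposures. The counts cover 9 EtOH, 12 CBM and 6 PBS samples of T cells, 8, 13 and 8 of B cells, and 8, 13 and 8 of monocytes, each group of both sexes. The labels do not say which samples share an animal or a litter, so p-values measure the spread between these samples only. CBM titles give samples of different cell types a shared number, which is not explained, and the main tests do not use it.

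Upstream sequences are shown for the 4 members that the results turn on most: Plk3 and Plk2, whose levels differed most between CBM and PBS, Bbc3, which differed most between T and B cells, and Mdm2, which differed least between cell types. Each is the 250 bases before the annotated start, 5′ to 3′ on the gene's strand, from RefSeq (GRCm38.p6), which held 9 of the 10 genes. They lie at chr4:117133964-117134213 (minus strand) for Plk3, chr13:110394794-110395043 (plus) for Plk2, chr7:16309333-16309582 (plus, the first of 3 starts) for Bbc3 and chr10:117710759-117711008 (minus) for Mdm2. Capitals mark matches to a motif on either strand.
Plk3: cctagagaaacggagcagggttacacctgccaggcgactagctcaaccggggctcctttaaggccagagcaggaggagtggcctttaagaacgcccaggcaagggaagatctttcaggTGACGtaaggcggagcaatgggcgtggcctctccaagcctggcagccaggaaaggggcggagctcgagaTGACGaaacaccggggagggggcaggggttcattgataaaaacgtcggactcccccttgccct
Plk2: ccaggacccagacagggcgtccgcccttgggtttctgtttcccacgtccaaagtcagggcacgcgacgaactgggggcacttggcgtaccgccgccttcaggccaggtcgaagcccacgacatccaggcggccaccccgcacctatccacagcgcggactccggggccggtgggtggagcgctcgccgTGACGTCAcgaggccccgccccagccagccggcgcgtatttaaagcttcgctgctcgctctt
Bbc3: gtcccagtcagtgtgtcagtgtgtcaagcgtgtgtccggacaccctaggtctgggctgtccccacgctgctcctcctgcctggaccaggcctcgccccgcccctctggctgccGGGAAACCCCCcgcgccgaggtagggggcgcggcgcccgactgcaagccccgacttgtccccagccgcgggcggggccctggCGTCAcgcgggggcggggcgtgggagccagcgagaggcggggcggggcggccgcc
Mdm2: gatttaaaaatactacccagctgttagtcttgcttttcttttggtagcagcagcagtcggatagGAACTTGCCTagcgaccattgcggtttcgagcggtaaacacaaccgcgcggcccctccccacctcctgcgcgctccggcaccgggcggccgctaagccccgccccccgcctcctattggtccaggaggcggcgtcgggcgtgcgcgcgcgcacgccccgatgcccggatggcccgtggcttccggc
In Plk3 the capitals are 2 copies of TGACG, the half-site of the cAMP response element (CRE), 132 and 63 bases before the start. Plk2 held the full CRE, TGACGTCA, 62 bases before the start, which contains the half-site on both strands. Bbc3 held 1 CRE half-site on the other strand 55 bases before the start and overlapping matches to the NF-kB motif from 137 bases before it. Mdm2 held a p53 half-site 186 bases before its start, and the windows of Gadd45a, Ccng1 and Cdkn1a, which are not printed because they overlap annotated exons, also held 1 or more. Across 32851 promoter windows of this length, 17.8% held the CRE half-site, 1.5% the full CRE, 3.9% the NF-kB motif and 7.1% the p53 half-site. Gadd45b and Gadd45g held a TATA box (TATAAA, in 12.4% of windows), and none of the 9 genes held the AP-1 motif TGANTCA (6.7%) or the serum response element (1.5%) in these windows.

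Total counts per sample were 0.33 to 8.28 M counts, with a median of 4.37 M. Values are CPM, counts scaled to a total of 1000000 per sample, and repeat libraries of a sample (39 of the 85 samples) were summed. In 15 samples the genes went against a label, 13 by sex (Xist against Y-linked genes) and 2 by cell type. By group these are 3 EtOH, 1 CBM and 2 PBS T cell samples, 1 EtOH and 3 PBS B cell samples, and 2 EtOH and 3 PBS monocyte samples. EtOH T cell replicate JS29 had the monocyte gene Lyz2 at 20609 CPM and the T cell gene Cd3e at 13.2 CPM, and PBS monocyte replicate JS17 had Lyz2 at 172 CPM and Cd3e at 865 CPM. Results are therefore given with all samples and without these 15. The conflicting PBS samples are JS15 to JS22, a run of consecutive numbers, and PBS samples JS1 to JS14 all fit their labels. PBS values without conflicts thus rest on JS1 to JS14 only. Whether the 2 runs of PBS samples differ in more than their labels was not tested. In bulk samples, fewer cells of a type and less RNA per cell cannot be told apart. Gadd45a, Cdkn1a and Plk3 overlap exons of genes on the opposite strand (E230016M11Rik, AC167363.2 and Tctex1d4), and no use of strand in counting is stated, so their reads cannot be told apart.

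**Figure D1:**
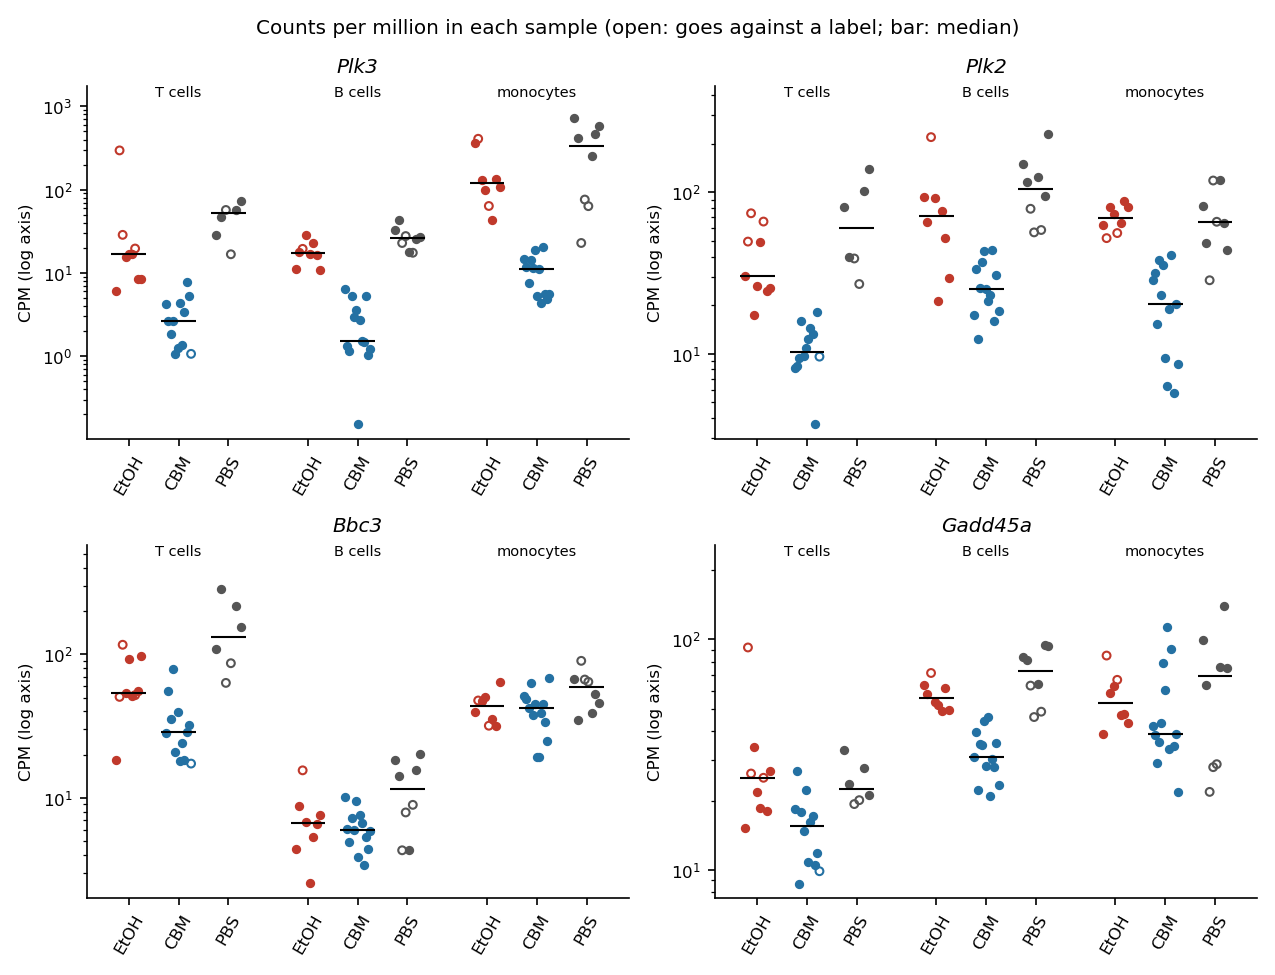
CPM (log axis) of Plk3, Plk2, Bbc3 and Gadd45a in each sample of the 3 cell types under EtOH, CBM and PBS. Open circles are samples that go against a label and bars are group medians. Plk3 in CBM samples lay at 0.155 to 20.5 CPM and below every PBS sample of the same cell type.

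The members' levels differed between cell types. Per kilobase of exon, Cdkn1a averaged 3.92 CPM in CBM T cells, 5.33 in CBM B cells and 49.97 in CBM monocytes. Gadd45g averaged 14.1 CPM per kilobase in CBM T cells, 41.1 in B cells and 19.3 in monocytes, and Bbc3 15.6 in T cells, 2.94 in B cells and 19.5 in monocytes. Mdm2 was nearly level, at 24.9 CPM per kilobase in T cells, 21.1 in B cells and 18.4 in monocytes. Differences between cell types were tested within CBM, which holds most samples and 1 of the 15 label conflicts, with edgeR and Benjamini-Hochberg adjustment.

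Among the genes of cell cycle arrest and p53 feedback, Cdkn1a, which encodes the CDK inhibitor p21 (ENSMUSG00000023067, chromosome 17, 29090976 to 29100727), was highest in monocytes. In CBM it was at 1.26 to 39.4 CPM (median 11.9) in T cells, 7.83 to 38.6 CPM (median 18.1) in B cells and 72.8 to 302 CPM (median 190) in monocytes. No CBM B or T cell sample reached the lowest CBM monocyte sample. The log2 difference from monocytes was -3.95 ± 0.38 in T cells (SE, adjusted p = 1.22e-09) and -3.49 ± 0.23 in B cells (adjusted p = 1.12e-13), while the difference of T from B cells, -0.42 ± 0.36, did not pass (adjusted p = 0.399). Ccng1, cyclin G1, was at 102 to 186 CPM (median 161) in CBM T cells, at 41.3 to 103 (median 73.9) in B cells and at 41.8 to 139 (median 96.8) in monocytes. It was higher in T than in B cells by 1.06 ± 0.13 on the log2 scale (adjusted p = 9.39e-08) and lower in B cells than in monocytes (log2 -0.77 ± 0.18, adjusted p = 0.000612), with T cells and monocytes 0.28 ± 0.17 apart (adjusted p = 0.198). Mdm2 passed in none of the 3 comparisons, its differences lying between -0.11 and 0.24. Without replicate CBM9 of the T cells, which goes against its sex label, the difference of T from B cells was 0.28 ± 0.11 and passed (adjusted p = 0.0462).

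Of the genes tied to cell death, Bbc3 was the one with the widest gap between lymphocytes. It lay at 17.3 to 79.2 CPM (median 28.7) in CBM T cells and 3.43 to 10.1 CPM (median 5.97) in CBM B cells, without overlap, a log2 difference of 2.36 ± 0.22 (adjusted p = 6.82e-10). Monocytes were at 19.3 to 68.7 CPM (median 42.5), and B cells were below them (log2 -2.92 ± 0.19, adjusted p = 1.28e-13). T cells were below monocytes in CBM (log2 -0.57 ± 0.18, adjusted p = 0.00916). In PBS they lay above monocytes by 1.09 ± 0.31, and in EtOH the difference was 0.14 ± 0.24. The PBS and EtOH values rest on lymphocyte samples on which Bbc3 was chosen, so they carry no test here. Trp53inp1, a p53-induced nuclear protein that assists p53 and autophagy, was higher in CBM T cells than in B cells (0.44 ± 0.13, adjusted p = 0.00645) and in B cells than in monocytes (0.49 ± 0.16, adjusted p = 0.00991). In PBS its order was not that one, with T cells -1.06 ± 0.46 (adjusted p = 0.0755) and B cells -0.86 ± 0.38 (adjusted p = 0.0712) from monocytes. Without label conflicts these PBS differences were -1.55 ± 0.33 (adjusted p = 0.00159) and -1.45 ± 0.27 (adjusted p = 0.000512).

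Gadd45a and Gadd45b had the same order of cell types, and Gadd45g another. Gadd45a in CBM was at 8.69 to 26.8 CPM (median 15.4) in T cells, 20.97 to 45.96 (median 30.8) in B cells and 21.7 to 114 (median 38.95) in monocytes. Each step passed, with T below B cells (log2 -1.03 ± 0.20, adjusted p = 8.02e-05) and B cells below monocytes (log2 -0.91 ± 0.22, adjusted p = 0.00122). Gadd45b followed the same order, with medians of 14.9, 27.3 and 38.95 CPM and differences of -0.97 ± 0.17 (adjusted p = 3.61e-05) and -0.68 ± 0.16 (adjusted p = 0.000792). Gadd45g was highest in B cells, at 32.9 to 76.5 CPM (median 43.9), above monocytes (median 22.8 CPM) by 0.83 ± 0.16 (adjusted p = 9.39e-05). T cells had a median of 7.23 CPM in a low and a high range, with 7 samples at 1.87 to 7.29 CPM, 1 at 12.4 and 4 at 29.5 to 42.7. The 4 highest also had the highest sums of the 6 natural killer cell markers, at 3870.5 to 5317.4 CPM. The sample at 12.4 CPM had a sum of 3242.3, and of the 7 lowest 1 had 3121.4 and the other 6 had 250.2 to 1011.5. Sums of the 9 monocyte markers were 2165.5 to 3037.1 CPM in the 4 highest, 2458.7 in CBM8 (1 of the 7 lowest) and at most 1437.5 in the others. The part of natural killer cells or monocytes in these levels was not tested. T cells lay below B cells (log2 -1.52 ± 0.37, adjusted p = 0.0017), and their difference from monocytes was -0.71 ± 0.38 (adjusted p = 0.129). The difference from monocytes passed when the CBM number was taken as a replicate block, as given at the end.

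Of the polo-like kinases, Plk3 was highest in monocytes. Its CBM medians were 2.62 CPM in T cells, 1.51 for B cells and 11.2 in monocytes. The PBS medians were 51.7 CPM in T cells, 26.2 for B cells and 336 in monocytes. In CBM, T cells (-2.05 ± 0.34, adjusted p = 9.96e-06) and B cells (-2.27 ± 0.39, adjusted p = 1.25e-05) lay below monocytes, and T and B cells were 0.26 ± 0.44 apart (adjusted p = 0.669). Plk2 was lowest in T cells, with a median of 10.3 CPM against 25.3 in B cells and 20.4 in monocytes. T cells were below B cells (log2 -1.24 ± 0.21, adjusted p = 1.32e-05) and below monocytes (log2 -1.20 ± 0.28, adjusted p = 0.000779), while B cells and monocytes were 0.05 ± 0.27 apart (adjusted p = 0.885).

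Counted over the set, 7 of 10 members passed between CBM T and B cells (3 higher, 4 lower), where 36.4% of the genes tested passed. Between T cells and monocytes 7 passed (1 higher, 6 lower, background 49.5%), and between B cells and monocytes 8 passed (2 higher, 6 lower, background 47.4%). In PBS, 6, 6 and 5 members passed in these comparisons, where 44.5%, 43.6% and 51.2% of genes did. In EtOH, 3, 4 and 5 passed against 28.5%, 39% and 55.3%. The PBS and EtOH shares lie near the background or little above it, and no statement about the set is drawn from them.

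**Figure D2:**
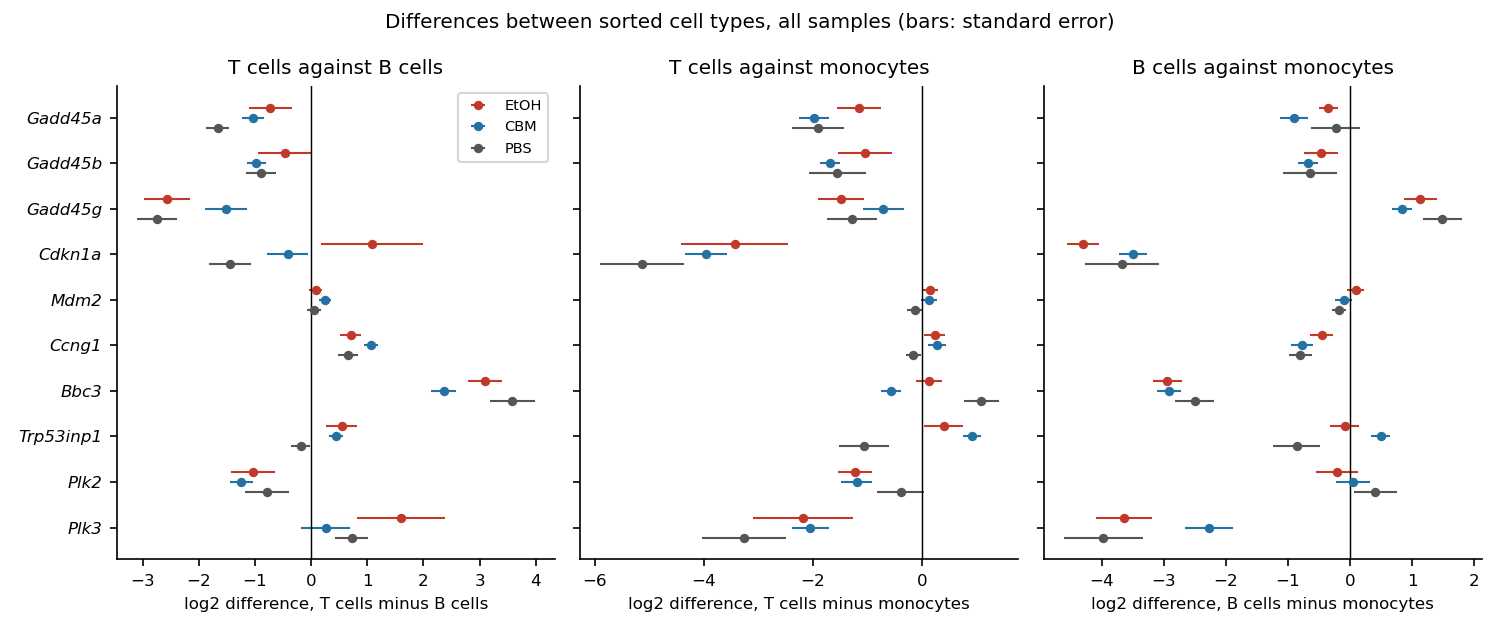
Log2 differences between the sorted cell types for the 10 members (all samples), with EtOH, CBM and PBS as separate points and bars of 1 SE. Cdkn1a and Plk3 lay left of zero against monocytes in all 3 treatments, Bbc3 lay right of zero for T against B cells, and Mdm2 stayed near zero.

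EtOH against PBS asks which transcripts differ in young mice after prenatal alcohol. In T and B cells this is the contrast from which the set was drawn, and the values that follow describe it. Bbc3 was at 18.3 to 117 CPM (median 53.6) in EtOH T cells and 63.3 to 285 CPM (median 132) in PBS T cells, a log2 difference of -1.16 ± 0.35 (SE) with all samples. The ranges overlapped. Without label conflicts the EtOH samples were at 18.3, 51.2, 53.6, 55.4, 92.6 and 97.3 CPM and the PBS samples at 108, 156, 217 and 285 CPM, a log2 difference of -1.66 ± 0.35. In B cells Bbc3 was at 2.55 to 15.6 CPM (median 6.68) under EtOH and at 4.31 to 20.2 CPM (median 11.6) under PBS, a log2 difference of -0.74 ± 0.36, or -1.38 ± 0.35 without conflicts. The B cell ranges overlapped with and without the conflicting samples.

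Plk3 in T cells depended on 1 sample. EtOH T cell replicate JS29, whose markers are those of monocytes, had 296 CPM, and the other 8 EtOH samples were at 6.10 to 28.7 CPM. PBS T cells were at 16.8 to 72.5 CPM (median 51.7), so the log2 difference was -0.06 ± 0.98 with all samples and -1.69 without JS29. Without all conflicting samples, EtOH was at 6.10, 8.37, 8.48, 15.4, 16.8 and 16.9 CPM and PBS at 28.8, 46.5, 57.3 and 72.5 CPM, a log2 difference of -2.43 ± 0.27. In B cells Plk3 was at 10.9 to 28.2 CPM (median 17.3) under EtOH and 17.5 to 43.1 CPM (median 26.2) under PBS, a log2 difference of -0.61 ± 0.24, or -0.90 ± 0.31 without conflicts. Its partner Plk2 lay at a median of 30.5 CPM in EtOH and 60.5 CPM in PBS T cells, and at 70.8 CPM in EtOH and 105 CPM in PBS B cells. Its log2 differences were -0.74 ± 0.43 in T cells and -0.48 ± 0.38 in B cells, or -1.96 ± 0.31 and -1.65 ± 0.32 without conflicts.

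Gadd45a is the third gene for which the set was chosen. In B cells it was at 48.9 to 71.5 CPM (median 55.7) under EtOH and 46.0 to 95.0 CPM (median 73.0) under PBS, a log2 difference of -0.38 ± 0.17. The lowest 3 PBS samples are those with label conflicts, and without conflicts EtOH samples lay at 48.9 to 63.6 CPM and PBS samples at 64.3, 81.7, 83.6, 93.7 and 95.0 CPM, a log2 difference of -0.82 ± 0.13. In T cells Gadd45a was at a median of 25.1 CPM under EtOH and 22.4 CPM under PBS, a log2 difference of 0.50 ± 0.48, which was -0.11 without JS29 (92.3 CPM) and -0.32 ± 0.24 without all conflicting samples. Gadd45b in T cells had a log2 difference of 0.02 ± 0.56, and -1.06 ± 0.33 without conflicts (-0.57 when PBS replicate JS7, at 18.7 CPM, is also left out).

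The other members showed no common direction in EtOH T and B cells. Trp53inp1 lay above PBS, with medians of 121 CPM in EtOH and 66.9 CPM in PBS T cells and of 99.4 CPM in EtOH and 78.2 CPM in PBS B cells. Its log2 differences were 0.98 ± 0.37 and 0.26 ± 0.12, and EtOH T cell replicate JS35 stood apart at 520 CPM, where the next sample had 133 CPM. Without conflicts the T cell difference was 1.09 ± 0.49, and 0.63 without JS35 as well. Cdkn1a in T cells was at 2.98 to 233 CPM (median 5.99) under EtOH and 4.11 to 17.6 CPM (median 11.7) under PBS. The highest value is that of JS29, and the log2 difference of 1.06 ± 1.21 was -0.41 without JS29 and -0.59 ± 0.62 without all conflicting samples. Cdkn1a in B cells was at a median of 18.1 CPM under EtOH and 27.5 CPM under PBS, a log2 difference of -0.87 ± 0.32, or -1.34 ± 0.40 without conflicts. Mdm2 and Ccng1 lay within 0.25 of zero in both cell types with all samples. With all samples 0 of 10 members were called in either cell type, as were 0% of the 13141 genes tested in T cells and 0% of 13337 in B cells. Without conflicts 3 of 10 were called lower in each (0.63% of genes were lower for T cells, 2.99% for B cells), and nothing is read from this since the members were chosen on that contrast. Ranges of 3 members did not overlap in T cells (all lower in EtOH, 1.5% of genes) and of 3 in B cells (2 lower, 0.941% of genes, and Trp53inp1 higher, 1.16%). Red cell markers were lower as well without conflicts, with 3 of 5 called in T cells and 4 of 5 in B cells. Their sum was 250.5 to 1464 CPM in EtOH and 465.5 to 4394 CPM in PBS T cells, and 430.1 to 3592 CPM in EtOH and 748.7 to 6736 CPM in PBS B cells. Their part in the members' differences was not tested.

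**Figure D3:**
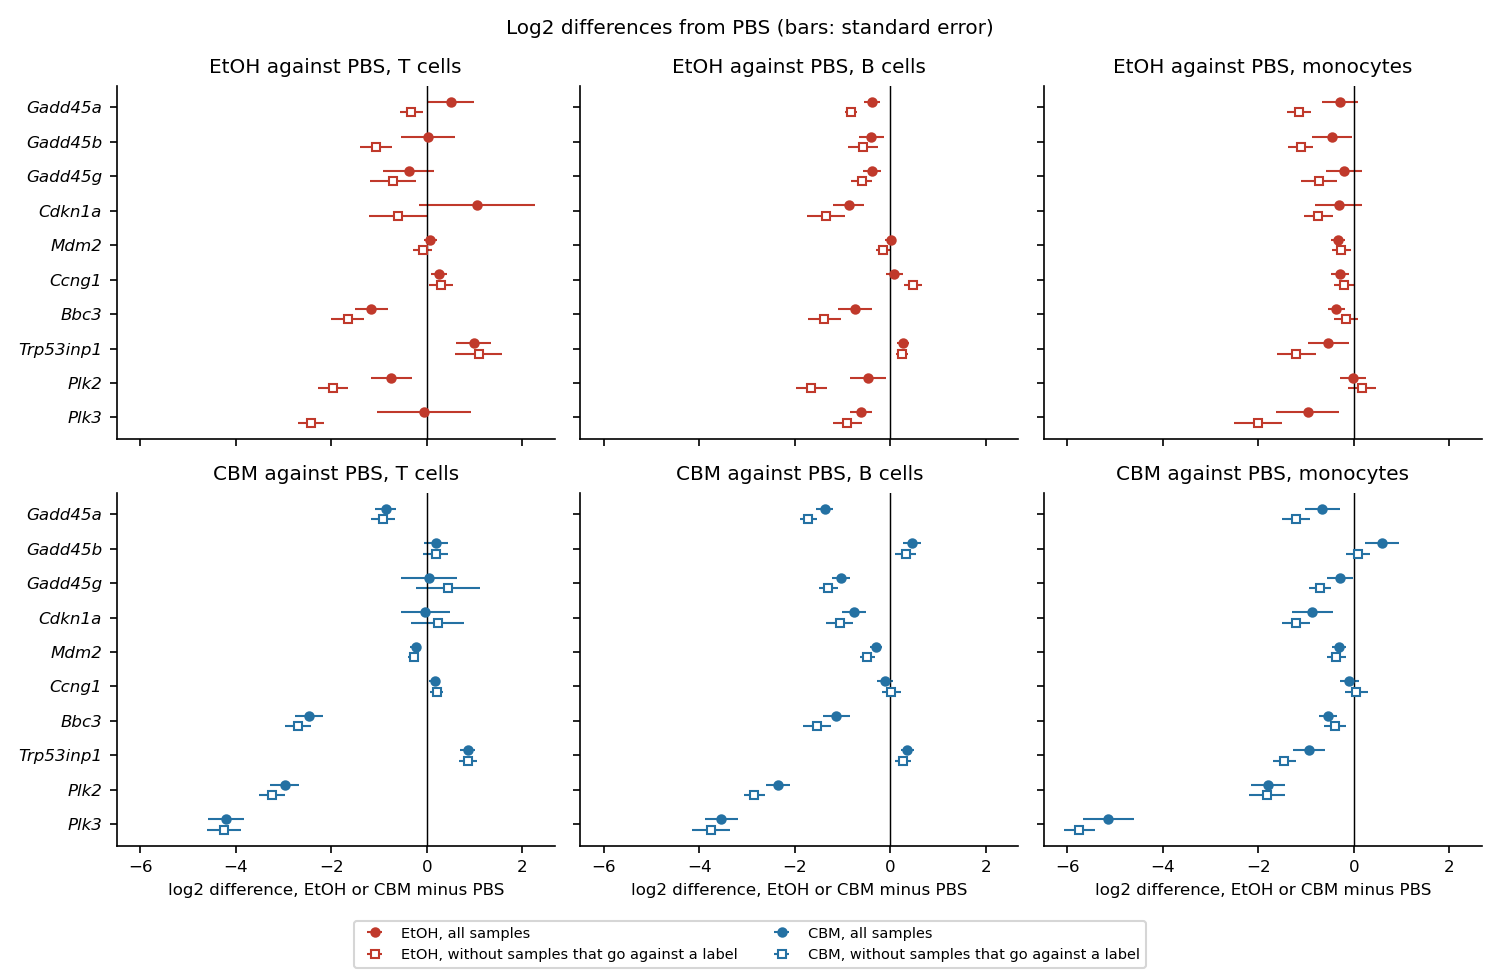
Log2 differences of EtOH (upper row) and CBM (lower row) from PBS for the 10 members in T cells, B cells and monocytes, with 1 SE, for all samples (filled) and without samples that go against a label (open). Plk3 and Plk2 lay furthest left in CBM, and leaving out conflicting samples moved Plk3 in EtOH T cells to -2.43.

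Monocytes were no part of the choice, and EtOH against PBS was tested there. Whether they share animals with the lymphocytes is not labelled, so the test is not known to be independent of the choice. With all samples 0 of 10 members passed, as did 0% of 13596 genes (461 genes had an unadjusted p under 0.05, and DESeq2 called 2 genes and no member). All 10 members had negative log2 differences, with a median of -0.33 against -0.01 over all genes. With 1 replicate left out, Plk2 ranged over -0.13 to 0.15 and Gadd45a over -0.43 to 0.12. The share of all genes below zero is not given here, so nothing is read from the count of negative members. Plk3 had 42.8 to 408 CPM (median 119) under EtOH and 22.9 to 720 CPM (median 336) under PBS. The EtOH range lay within the PBS range. The 3 lowest PBS samples (22.9, 63.4 and 76.1 CPM) are those with label conflicts, and the log2 difference was -0.97 ± 0.66 (adjusted p = 0.998). Without conflicts EtOH lay at 42.8, 98.1, 107, 131, 133 and 368 CPM and PBS at 253, 420, 472, 581 and 720 CPM, 1 EtOH sample reaching into the PBS range. The log2 difference was then -1.9997 ± 0.50 and did not pass (adjusted p = 0.139), except when EtOH replicate JS31, at 368 CPM, was also left out (-2.42, adjusted p = 0.0163).

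Of the other members in EtOH monocytes without conflicts, Gadd45a (-1.14 ± 0.25, adjusted p = 0.0917), Gadd45b (-1.11 ± 0.26, adjusted p = 0.12) and Trp53inp1 (-1.21 ± 0.41, adjusted p = 0.275) had the largest differences, and none passed. Gadd45a was the 1 member whose ranges did not overlap, at 38.7 to 63.0 CPM in EtOH and 63.3 to 140 CPM in PBS, which 0.638% of genes did in this direction. Bbc3 differed by -0.17 ± 0.24 and Plk2 by 0.17 ± 0.30. Without conflicts, too, 0 of 10 members passed, where 0.0709% of 15514 genes did.

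CBM against PBS compares the samples of batch 2 with PBS samples of batch 1, so treatment and batch cannot be told apart in any value that follows, and the PBS samples are those of the EtOH comparison. Plk3, Bbc3 and Gadd45a were chosen because they lay above EtOH in the PBS lymphocytes, which favours lower values in CBM as well, so for these 3 genes the T and B cell values are given without a test. The other members were added to the set with earlier results of these data known. Their tests in T and B cells use the same PBS samples and are not independent of the choice. Plk2 fell in all 3 cell types, Plk3 in monocytes, and Bbc3 in monocytes with all samples only. Plk3 was at 1.05 to 7.77 CPM (median 2.62) in CBM T cells and 16.8 to 72.5 CPM (median 51.7) in PBS T cells, a log2 difference of -4.21 ± 0.38. In B cells it was at 0.155 to 6.43 CPM (median 1.51) under CBM and 17.5 to 43.1 CPM (median 26.2) under PBS, a difference of -3.54 ± 0.35. In monocytes it was at 4.40 to 20.5 CPM (median 11.2) under CBM and 22.9 to 720 CPM (median 336) under PBS, a difference of -5.14 ± 0.53 (adjusted p = 3.25e-07). In each cell type every CBM sample was below every PBS sample, and without conflicts the differences were -4.24, -3.76 and -5.75.

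Plk2 was lower as well, in T and B cells against the PBS samples on which the set was chosen. In T cells CBM samples were at 3.66 to 18.1 CPM (median 10.3) and PBS samples at 27.0 to 140 CPM (median 60.5), without overlap (log2 difference -2.98 ± 0.30, adjusted p = 1.94e-07). In B cells CBM samples were at 12.3 to 44.1 CPM (median 25.3) and PBS samples at 56.4 to 231 CPM (median 105), again without overlap (-2.35 ± 0.26, adjusted p = 1.03e-07). In monocytes CBM samples were at 5.74 to 40.7 CPM (median 20.4) and PBS samples at 28.5 to 118 CPM (median 65.0), where the conflicting PBS replicate at 28.5 CPM made the ranges overlap (-1.80 ± 0.35, adjusted p = 0.00061). Of the polo-like kinases outside the set, Plk1, the mitotic kinase, rose in CBM T cells by 2.03 ± 0.83 (adjusted p = 0.0493), and Plk4, which duplicates centrioles, fell in B cells (log2 -1.17 ± 0.25, adjusted p = 0.000733).

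Bbc3 was at 17.3 to 79.2 CPM (median 28.7) in CBM T cells, against 63.3 to 285 CPM (median 132) in PBS T cells, a log2 difference of -2.47 ± 0.30. The ranges overlapped by 1 CBM sample and with no conflicting samples they did not. In B cells it was at a median of 5.97 CPM under CBM and 11.6 CPM under PBS (-1.13 ± 0.29). In monocytes the medians were 42.5 CPM under CBM and 58.8 CPM under PBS (-0.54 ± 0.19, adjusted p = 0.0445), and this call was lost without conflicts (-0.39 ± 0.23, adjusted p = 0.271) and without any single one of PBS replicates JS6, JS9, JS11, JS17, JS19 or JS22 (adjusted p up to 0.114). The interaction of cell type and treatment, a test added after the data were seen, put the Bbc3 difference in T cells at -1.90 ± 0.36 from that in monocytes and at -1.32 ± 0.44 from that in B cells, values that rest on the PBS lymphocytes and carry no test here.

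Trp53inp1 was the member that rose, in T and B cells. It was at 98.7 to 205 CPM (median 158) in CBM T cells and 51.7 to 114 CPM (median 66.9) in PBS T cells, a log2 difference of 0.86 ± 0.16 (adjusted p = 0.000343). In B cells the medians were 113 CPM under CBM and 78.2 CPM under PBS (0.35 ± 0.14, adjusted p = 0.0484), and this call was lost without conflicts (0.26 ± 0.16, adjusted p = 0.194) and without any single one of PBS replicates JS2, JS8, JS10, JS18 or JS21 (adjusted p up to 0.135). In monocytes the medians were 64.0 CPM under CBM and 94.5 CPM under PBS (-0.94 ± 0.33, adjusted p = 0.0396). Without conflicts the monocyte difference was -1.45 ± 0.24 (adjusted p = 0.000169), and with all samples the call was lost without any single one of PBS replicates JS3, JS6, JS11 or JS14 (adjusted p up to 0.258). The interaction test was added after the data were seen, so its p-values are given as a description. With all samples its PBS monocytes include JS17, which has T cell markers. The differences in T cells and monocytes were 1.72 ± 0.40 apart (interaction, adjusted p = 0.0498, where 0.263% of genes passed), and 2.23 ± 0.40 without conflicts (adjusted p = 0.00279, where 1.01% of genes passed). B cells and monocytes were 1.21 ± 0.37 apart (adjusted p = 0.137, where 0.403% of genes passed), and 1.61 ± 0.33 without conflicts (adjusted p = 0.0104, where 0.567% did). T and B cells were 0.50 ± 0.22 apart (adjusted p = 0.393, where 0.952% did).

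The Gadd45 genes had differences of both signs in CBM. Gadd45a was at 8.69 to 26.8 CPM (median 15.4) in CBM T cells, against 19.3 to 33.2 CPM (median 22.4) in PBS T cells (log2 -0.86 ± 0.22). In B cells it was at 20.97 to 45.96 CPM (median 30.8) under CBM and 46.0 to 95.0 CPM (median 73.0) under PBS, every CBM sample below every PBS sample (-1.37 ± 0.18). In monocytes the difference was -0.66 ± 0.37 (adjusted p = 0.201), and -1.22 ± 0.29 without conflicts (adjusted p = 0.00576). Gadd45g fell in B cells, to a median of 43.9 CPM under CBM against 89.2 CPM under PBS (-1.02 ± 0.19, adjusted p = 0.000199), with 0.05 ± 0.59 in T cells and -0.29 ± 0.27 in monocytes (-0.70 ± 0.23 without conflicts, adjusted p = 0.0387). Gadd45b had positive differences in T cells (0.20 ± 0.25, adjusted p = 0.555), B cells (0.45 ± 0.19, adjusted p = 0.0589) and monocytes (0.59 ± 0.36, adjusted p = 0.241), none of which passed. The B cell difference passed without PBS replicate JS16 (0.50, adjusted p = 0.0437).

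Of the arrest and feedback genes, Cdkn1a fell in CBM B cells, to a median of 18.1 CPM against 27.5 CPM in PBS (-0.77 ± 0.25, adjusted p = 0.0209, lost without PBS replicate JS5 at an adjusted p of 0.0613). In monocytes its medians were 190 CPM under CBM and 261 CPM under PBS (-0.87 ± 0.42, adjusted p = 0.14). Without PBS replicate JS17, the monocyte sample with T cell markers and 6.18 CPM of Cdkn1a, the difference was -1.01 and passed (adjusted p = 0.00751), and without all conflicting samples it was -1.21 ± 0.29 (adjusted p = 0.00486). In T cells it was -0.03 ± 0.52. Mdm2 (-0.23 ± 0.12 in T cells, -0.31 ± 0.13 for B cells and -0.31 ± 0.15 for monocytes) and Ccng1 (0.17 ± 0.11, -0.11 ± 0.16 and -0.10 ± 0.20) did not pass, although Mdm2 in B cells passed without PBS replicate JS18 (-0.39, adjusted p = 0.0207) and without all conflicting samples (-0.48 ± 0.15, adjusted p = 0.0175).

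In all, 1 member was called higher and 4 lower in CBM T cells, where 24.4% of 15669 genes were higher and 23% lower, so the share called, 5 of 10, was near the 47.4% of all genes. In B cells 1 was higher and 6 lower, where 18.7% of genes were higher and 16.8% lower, and in monocytes 0 were higher and 4 lower, where 10.4% were higher and 13.6% lower. The lower members include Plk3, Bbc3 and Gadd45a in T and B cells, so nothing is read from those counts, and of the other 7 members 1 was lower in T cells and 3 in B cells. Without conflicts 1 was higher and 4 lower in T cells (23.2% and 18.7% of genes), 0 and 7 in B cells (23.1% and 18.3%), and 0 and 6 in monocytes (7.48% and 10.1%). Ranges lay wholly below PBS for 2 members in T cells (4.61% of genes), 3 in B cells (2.93%) and 1 in monocytes (1.97%), and without conflicts for 3, 3 and 2 members (6.46%, 4.4% and 2.94%). In T and B cells these are Plk2 and Plk3, with Gadd45a in B cells and, without conflicts, Bbc3 in T cells. Plk3, Gadd45a and Bbc3 were chosen on these PBS lymphocytes, so nothing is read from the lymphocyte counts of ranges. Markers of other cell types moved as well: the B cell markers fell in CBM T cells for 7 of 7 tested, and the sum of all 8 was 27.6 to 70.4 CPM there against 48.0 to 2105 CPM in PBS T cells. In CBM monocytes 9 of 9 T cell markers fell with all samples and 1 of 9 without conflicts, their sum being 115 to 810 CPM in CBM and 202 to 10190 CPM in PBS, or 202 to 502 CPM without conflicts. None of these markers was at 0 throughout a group. Monocyte markers rose for 4 of 8 tested in CBM T cells, with sums of 666 to 3037 CPM under CBM and 574 to 920 CPM under PBS. Of the 6 natural killer cell markers none was called in any cell type, with sums of 250.2 to 5317 CPM (median 2066) in CBM and 412 to 2609 CPM (median 635.3) in PBS T cells. Red cell markers fell for 3 of 5 in T cells, 2 of 5 in B cells and 1 of 5 in monocytes, with median sums of 1268 CPM in CBM and 3169 CPM in PBS T cells, 1892 and 3498 CPM in B cells, and 587.2 and 2013 CPM in monocytes. Platelet markers fell for 2 of 4 in monocytes, with median sums of 156.5 CPM in CBM and 476.6 CPM in PBS. Neutrophil markers were called in none, but their sum in monocytes was 4107 to 55220 CPM in CBM and 21.8 to 17730 CPM in PBS. The part of these cells in the members' differences was not tested.

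**Figure D4:**
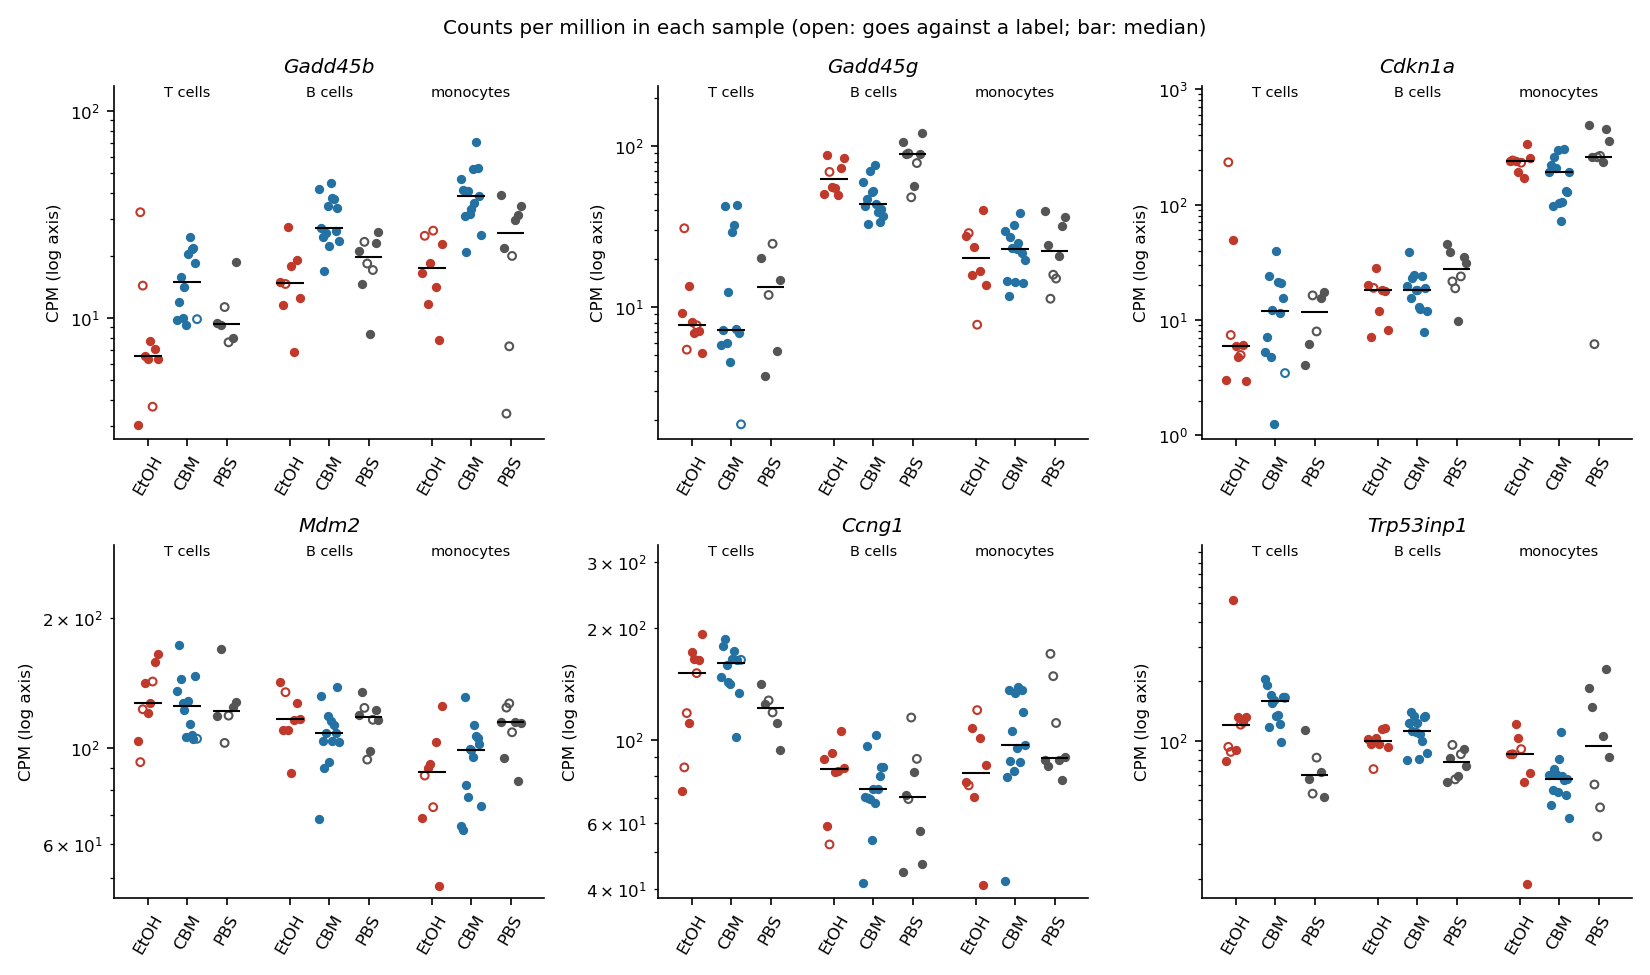
CPM (log axis) of Gadd45b, Gadd45g, Cdkn1a, Mdm2, Ccng1 and Trp53inp1 in each sample, drawn with open circles for samples that go against a label and bars for group medians. Cdkn1a lay at 72.8 to 302 CPM in CBM monocytes and at up to 39.4 CPM in CBM lymphocytes, and Trp53inp1 in T cells lay at 98.7 to 205 CPM in CBM and 51.7 to 114 CPM in PBS.

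The rest of the pathway was read from 7 gene lists, to be set beside all genes tested, of which 47.4% were called in T cells, 35.5% in B cells and 24% in monocytes. Of 11 genes of the p53 core and its regulators, 9 were tested, and in CBM against PBS 1 rose and 3 fell in T cells, 2 fell in B cells and 2 fell in monocytes. Usp7, the deubiquitinase that stabilises MDM2 and p53, fell in T cells (log2 -1.75 ± 0.18, adjusted p = 1.95e-07), B cells (-1.24 ± 0.22, adjusted p = 0.000128) and monocytes (-0.98 ± 0.24, adjusted p = 0.0049). Ppm1d, a phosphatase that p53 induces and that switches p53 signalling off, fell in the 3 cell types (-1.67 ± 0.40, -1.33 ± 0.28 and -1.57 ± 0.33, adjusted p = 0.00242, 0.000673 and 0.00112). Trp53, the gene of p53 itself, fell in T cells (log2 -0.29 ± 0.10, adjusted p = 0.0199), which was lost without conflicts (-0.21 ± 0.13, adjusted p = 0.19), and was at -0.20 ± 0.11 in B cells and -0.37 ± 0.22 in monocytes. The list medians were -0.09, -0.15 and -0.03, against 0.04, 0.13 and 0.002 over all genes.

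Calls among other p53 targets were no more frequent than among all genes in T cells and close to them in B cells and monocytes. Of 24, 3 rose and 5 fell among 23 tested in CBM T cells, 2 rose and 6 fell among 22 in B cells, and 3 rose and 2 fell among 22 in monocytes, with list medians of -0.01, -0.002 and -0.04 against 0.04, 0.13 and 0.002 over all genes. Zmat3, an RNA-binding protein induced by p53, rose in all 3 cell types (1.71 ± 0.27, 1.41 ± 0.43 and 1.52 ± 0.39, adjusted p = 6.89e-05, 0.0137 and 0.00596). Sesn1, a sestrin that restrains mTORC1, fell in B cells (-2.58 ± 0.28, adjusted p = 7.18e-08) and monocytes (-1.59 ± 0.36, adjusted p = 0.00263). Ddit4, a stress-induced inhibitor of mTORC1, fell in T cells (-1.62 ± 0.34, adjusted p = 0.000987) and B cells (-2.67 ± 0.37, adjusted p = 4.25e-06). Ephx1, a detoxifying epoxide hydrolase, fell in all 3 (-1.01 ± 0.18, -0.44 ± 0.12 and -3.18 ± 0.66, adjusted p = 0.00024, 0.00604 and 0.00108).

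Among 12 genes of the BCL2 family, to which the Bbc3 product binds, 3 rose and 1 fell in CBM T cells (10 tested), 3 rose and 2 fell in B cells (9 tested) and 4 rose and 1 fell in monocytes (9 tested). Their medians were 0.33, 0.43 and 0.30, against 0.04, 0.13 and 0.002 over all genes, of which 24.4%, 18.7% and 10.4% rose and 23%, 16.8% and 13.6% fell. Mcl1, a survival protein that PUMA binds, fell in T cells (log2 -2.56 ± 0.13, adjusted p = 8.91e-12), B cells (-1.65 ± 0.20, adjusted p = 5.65e-07) and monocytes (-2.09 ± 0.37, adjusted p = 0.000209). Bak1, a pore-forming effector of the family, rose in T cells (1.21 ± 0.39, adjusted p = 0.0162) and monocytes (2.31 ± 0.47, adjusted p = 0.000916). Of 8 MAP kinases downstream of the Gadd45 proteins, 1 rose and 2 fell in T cells, 2 fell in B cells and 1 rose in monocytes. With both directions together, these shares were below the 47.4%, 35.5% and 24% of all genes called. Taken by direction, the shares that fell in T and B cells and that rose in monocytes were not below those of all genes. Mapk14, the p38 alpha kinase, fell in T cells (log2 -1.31 ± 0.25, adjusted p = 0.000339) and B cells (-1.25 ± 0.20, adjusted p = 2.39e-05).

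Early response genes, the class to which Plk2 and Plk3 belong, had 0 risen and 7 fallen of 14 in CBM T cells, 3 risen and 4 fallen in B cells, and 0 risen and 3 fallen in monocytes. Their medians were -0.57, 0.03 and -0.39, against 0.04, 0.13 and 0.002 over all genes. The 7 of 14 that fell in T cells stand beside 23% of all genes, the B cell counts beside 18.7% risen and 16.8% fallen, and the 3 of 14 in monocytes beside 13.6% fallen. The PBS samples are those of the EtOH comparison, so the list is not independent of it. The 3 genes that rose in B cells are not among those named below. Egr1, a transcription factor of this class, fell in T cells (-1.99 ± 0.27, adjusted p = 1.15e-05), B cells (-0.84 ± 0.19, adjusted p = 0.00129) and monocytes (-3.29 ± 0.57, adjusted p = 0.000177). In T cells Dusp1, a phosphatase of MAP kinases, fell (log2 -1.47 ± 0.24, adjusted p = 8.82e-05). Nr4a2, an orphan nuclear receptor, fell in B cells (log2 -2.36 ± 0.57, adjusted p = 0.00252) and monocytes (-1.22 ± 0.41, adjusted p = 0.0319). Of 10 cell cycle genes 3 rose in T cells, 2 in B cells and 1 in monocytes and none fell, where 24.4%, 18.7% and 10.4% of all genes rose, so these counts lie near the background. Their medians were 1.66, 0.59 and 0.49. Without conflicts 10 of 10 rose in T cells, where 23.2% of all genes did, with a median of 2.87 against 0.12. Cdk1, the kinase of mitotic entry, rose in CBM T cells by 2.19 ± 0.85 with all samples (adjusted p = 0.0401) and by 3.46 ± 0.82 without conflicts (adjusted p = 0.00411).

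In EtOH monocytes none of these 7 lists had a member that passed, with all samples or without conflicts, where 0.0709% of genes passed without conflicts. Their medians without conflicts included 0.09 for the p53 core, 0.15 for other p53 targets and 0.05 for early response genes, against 0.05 over all genes. In EtOH T and B cells without conflicts, the early response list had a median of -0.99 in T cells and -0.29 in B cells, against 0.13 and 0.03 over all genes, as a description of the contrast from which the members were chosen.

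Female and male samples were compared within CBM, where 1 sample goes against its sex label. No member passed in T cells, B cells or monocytes, where 0, 6 and 5 genes passed (0%, 0.0361% and 0.0343% of those tested). Bbc3 had the lowest p of the members in T cells and monocytes, with -0.94 ± 0.28 in female against male T cells (adjusted p = 0.996) and -0.70 ± 0.22 in monocytes (adjusted p = 0.149), against -0.10 ± 0.35 in B cells. Gadd45a in monocytes differed by 0.94 ± 0.35 (adjusted p = 0.197).

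Within CBM, 8 pairs of members were correlated over the samples of each cell type, 24 tests in all, on log2(CPM + 1) with two-sided permutation tests. None passed Benjamini-Hochberg adjustment. Mdm2 and Ccng1 in monocytes had r = 0.71 (permutation p = 0.00481, adjusted 0.106, n = 13) and Spearman's rho 0.67 (permutation p = 0.0147, adjusted 0.118), with r = 0.53 without the 2 samples farthest from the median. Plk3 and Bbc3 in B cells had r = 0.70 (permutation p = 0.00884, adjusted 0.106, n = 13) and rho 0.69 (permutation p = 0.0105, adjusted 0.118), with r = 0.73 without the 2 farthest samples, or 0.50 on log2(CPM + 0.5), where 1 of the 2 farthest is another sample. Plk2 and Plk3, both lower in CBM, had r = 0.66 in monocytes (permutation p = 0.0161, adjusted 0.129, n = 13) and rho 0.71 (permutation p = 0.00844, adjusted 0.118), r = 0.82 without the 2 farthest samples, and r of -0.10 in B cells and -0.27 in T cells.

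After each cell type's mean was subtracted, the 45 pairs of members had a median r of 0.01 over the 38 CBM samples, with a range of -0.53 to 0.71. The highest was between Gadd45g and Cdkn1a and the lowest between Ccng1 and Plk3. In T cells the 4 samples highest in Gadd45g were also the 4 highest in Cdkn1a, above 15.6 CPM, which the others did not exceed. These are the samples with the highest natural killer cell marker sums. Their monocyte marker sums were 2165.5 to 3037.1 CPM, where CBM8 had 2458.7 and the others at most 1437.5. The part of either cell type in the correlation was not tested. Gadd45b was next to Gadd45g (r = 0.53), Mdm2 next to Ccng1 (r = 0.56), and Plk2 and Plk3 stood at r = 0.20. Among 11909 genes with a mean of at least 5 CPM, Bbc3 was most like Dusp5 (r = 0.73), a phosphatase of ERK, Ccnd1 (0.70), cyclin D1, and Ing2 (0.69). Gadd45a was most like E230016M11Rik (0.77), whose exons it overlaps, Mboat7 (0.75) and Rflnb (0.70). Plk3 was most like Crisp3 (0.61), Agpat2 (0.55) and Bcl7c (0.55). The points share library depth and batch, and these values are descriptions.

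**Figure D5:**
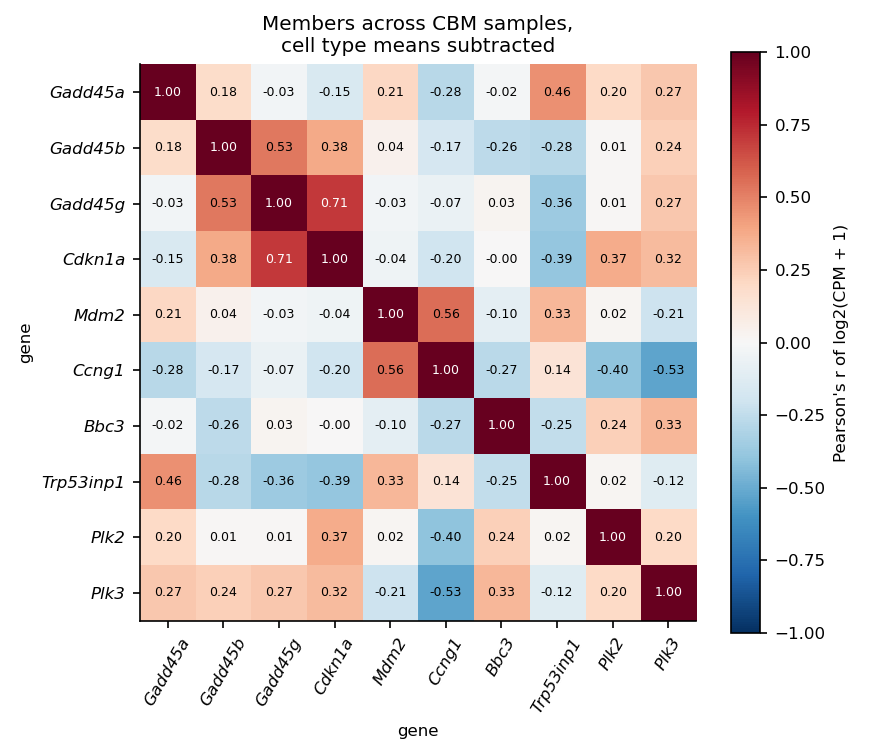
Pearson's r of log2(CPM + 1) between the 10 members over the 38 CBM samples, after each cell type's mean was subtracted, with red for positive and blue for negative values. Gadd45g with Cdkn1a (0.71) and Mdm2 with Ccng1 (0.56) stood out above a median of 0.01.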

How the data were processed

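Per the labels' protocols, RNA from sorted cells was made into SMART-Seq v4 and Nextera XT libraries and sequenced in pairs. Per the submitters' processing notes, reads were trimmed with BBDuk, aligned with HISAT2 2.1.0 to GRCm38 and counted with HTSeq 0.11.2. The authors deposited raw counts per gene and library, of which 3285 genes were at 0 in every library, and 99.6% of the gene IDs matched the mouse annotation GENCODE M21. Strand use is not given in the sources used here. From these counts, repeat libraries were summed, 3 lines naming no gene were left out, and each comparison was fitted with edgeR 4.0.16 (quasi-likelihood test, TMM, filterByExpr at a minimum count of 10, sex label as a term), with Benjamini-Hochberg adjustment over all genes at 0.05. SE is the log2 difference divided by the root of F. Correlations used 100000 permutations. Genes named from the 7 lists are among the 4 with the lowest p of those that passed in a comparison. Several of them are given for some cell types only, and uncalled values in other cell types are given only for Trp53. The members and lists were chosen with earlier results of these data known. The procedure was also run on simulated counts with known fold changes. These held no label conflicts, shared animals or batch, so they do not bear on those limits. Alternatives were DESeq2 1.42.0, its size factors, other filters, no sex term, no conflicting samples and each replicate left out.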

Additional observations from a re-analysis of the deposited data

Results flagged for a closer look

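Of 60 groups of 4 to 10 samples, 8 held a sample far from the others. The cut-off flags about 1 in 20 groups of normally distributed values. CPM need not be normal, and the groups hold the members in the same samples, so the count is not compared with chance. EtOH T cell replicate JS29, whose markers are those of monocytes, gave 5 of them. It had 92.3 CPM of Gadd45a (the others reached 34.3), 32.4 of Gadd45b (14.3), 30.8 of Gadd45g (13.5), 233 of Cdkn1a (48.9) and 296 of Plk3 (28.7). EtOH B cell replicate JS33, which goes against its sex label, had 219 CPM of Plk2, where the others reached 93.5. The other 2 samples fit their labels: PBS T cell replicate JS7 had 18.7 CPM of Gadd45b (the others reached 11.3), and EtOH T cell replicate JS35 had 520 CPM of Trp53inp1.

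Log2 differences that varied between cell types were flagged as well. For EtOH against PBS without conflicting samples, Trp53inp1 lay at 1.09 in T cells, 0.25 in B cells and -1.21 in monocytes on the log2 scale, a difference that was not tested. The T cell value was 0.63 without JS35, and the monocyte value did not pass. For CBM against PBS, the interaction test gave -1.90 for Bbc3 and 1.72 for Trp53inp1 in T cells minus monocytes, -2.17 and 2.23 without conflicting samples, and 1.61 for Trp53inp1 in B cells minus monocytes without them. The interaction test was added after the data were seen. The PBS T cells behind the Bbc3 values are part of the contrast for which that gene was chosen, so its values are a description.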

How the results depend on the processing

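Alternatives left 986 log2 differences on their side of the threshold with their direction, moved 38 past it, 13 back over it and 8 in size, and turned 28 round; for those and the counts that follow the cause was not tested. Genes called for EtOH against PBS were 76 (DESeq2), 3 (no filter) and 145 (without conflicting samples) in T cells. In EtOH B cells they were 1, 200 and 597, and for EtOH monocytes 2, 154 and 11, where the main counts were 0. For CBM against PBS in T cells they were 12435 (no filter) and 4815 (minimum count of 30), against 7432. Between the sexes they were 7 (DESeq2), 5 (no filter) and 8 (without conflicts) in T cells. B cells gave 11 (no filter), and monocytes 587 (DESeq2) and 720 (no filter). Interaction calls without conflicts were 199 for T cells minus monocytes and 115 for B cells minus monocytes, with 1 member. Without a filter, 1 member was called in EtOH monocytes (Plk3, -1.13, adjusted p = 0.0302), 2 in CBM monocytes (3516 of 46847 genes) and 1 between the sexes in monocytes (720 of 45185 genes). Without conflicts, 8 members were called for PBS B cells against monocytes, where 7903 of 13571 genes were, and 6 for EtOH T against B cells, where 4632 of 15560 were.

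Plk2 in EtOH monocytes was 0.00092 (minimum count of 30), 0.023 (no sex term) and 0.17 (without conflicts). Cdkn1a in CBM T cells was 0.063 (DESeq2 size factors), 0.054 (DESeq2), 0.091 (minimum count of 30), 0.099 (no sex term) and 0.23 (without conflicts), and Ccng1 without conflicts was 0.025 in CBM B cells and 0.052 in CBM monocytes. Between CBM T cells and monocytes Mdm2 was -0.0074, -0.0092, -0.091, -0.046 and -0.00076 (size factors, DESeq2, no filter, minimum count of 30, replicate block). Between CBM B cells and monocytes Plk2 was -0.036, -0.038, -0.14, -0.091 and -0.085 (size factors, DESeq2, no filter, minimum count of 30, no sex term). In EtOH without conflicts, T against B cells gave -0.64 for Cdkn1a and -0.64 for Plk3, T cells against monocytes -0.13 for Bbc3, and B cells against monocytes 0.032 for Trp53inp1 (0.13 with no filter). Between the sexes without a filter, Bbc3 in B cells was 0.021, and in monocytes Cdkn1a was 0.018 and Plk3 0.17.

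With 1 replicate left out, genes called ranged over 0 to 1 in EtOH T cells (31 to 283 without conflicts), 0 to 0 in EtOH B cells (9 to 1381), 0 to 0 in EtOH monocytes (0 to 107), 6531 to 7733, 4686 to 6891 and 2944 to 4053 in CBM T cells, B cells and monocytes, and 0 to 0, 6 to 9 and 4 to 275 between the sexes. Differences that crossed zero ranged over -0.11 to 0.61 for Gadd45a, -0.68 to 0.21 for Gadd45b, -0.41 to 1.46 for Cdkn1a, -0.018 to 0.14 for Mdm2 and -1.69 to 0.21 for Plk3 in EtOH T cells (the lowest without JS29 for all but Mdm2), -0.063 to 0.049 for Mdm2 and -0.026 to 0.21 for Ccng1 in EtOH B cells, -0.43 to 0.12 for Gadd45a and -0.13 to 0.15 for Plk2 in EtOH monocytes (without conflicts -0.41 to 0.00071 for Bbc3 and -0.066 to 0.34 for Plk2), -0.1 to 0.33 for Gadd45g and -0.14 to 0.26 for Cdkn1a in CBM T cells, and -0.16 to 0.0029 for Ccng1 in CBM monocytes. Between the sexes they were -0.003 to 1.53 for Gadd45g in T cells, -0.045 to 0.28 for Ccng1, -0.15 to 0.046 for Bbc3 and -0.47 to 0.12 for Plk3 in B cells, and -0.33 to 0.12 for Cdkn1a, -0.52 to 0.066 for Plk2 and -0.2 to 0.24 for Plk3 in monocytes.

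CBM numbers were taken as a replicate block between cell types in this alternative only. Samples of 1 number correlated at medians of 0.29, 0.31 and 0.3 (T with B cells, T cells with monocytes, B cells with monocytes). Samples of different numbers had medians of -0.02, -0.05 and -0.03. Pairs of 1 number correlated over 0.1 in only 10 of 12, 9 of 12 and 10 of 13 cases, and 7, 6 and 6 correlated best with their own number. The block gave 6450 of 14411, 7521 of 14069 and 8173 of 14095 genes and 7, 8 and 8 members, with Gadd45g called between T cells and monocytes (-1.39, adjusted p = 0.0102). The shallowest sample, EtOH T cell replicate JS23 at 0.33 M counts, limits the low genes most.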
